A study of Mus musculus with 10 samples.

Results

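The genes Coch, Otos, Otor, Emilin2, Slc4a11, Tbx18 and Pou3f4 are named for, or known from, the fibrocytes of the spiral ligament and the matrix around them in the cochlea, the hearing organ of the inner ear. Their probe sets were found by gene symbol, with current and older names and gene IDs compared against the platform annotation. The genes, and the marker lists set beside them below, were chosen with earlier results of these data known. The 7 genes were represented by 10 probe sets out of 45037 on the array after control probe sets were left out: 1 each for Coch, Otos, Otor and Emilin2, and 2 each for Slc4a11, Tbx18 and Pou3f4. Every one of these probe sets was annotated to a single gene. RNA came from cochlear tissue of male mice at 9 months, either wild-type (Polg+/+; 5 arrays) or homozygous for the D257A form of Polg (PolgD257A/D257A; 5 arrays). Polg is the gene for the enzyme that copies mitochondrial DNA; its D257A form has lost the proofreading activity, and mutations of mitochondrial DNA build up with age in such mice. The allele is not limited to a cell type, and the labels give both groups the same housing and diet. The background strain is not given in the sources used here.

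The spiral ligament is the connective tissue that anchors the lateral wall of the cochlea to its bony capsule. Its fibrocytes take up potassium that has passed through the hair cells and hand it on through gap junctions to the stria vascularis, which secretes it back into the endolymph. They also lay down the matrix of the ligament. Coch encodes cochlin, an abundant secreted matrix protein of fibrocytes whose mutation causes dominant hearing loss and vestibular disease. Otos encodes otospiralin, a small secreted protein of the ligament and limbus fibrocytes that is needed for normal hearing. Otor encodes otoraplin, a secreted relative of the cartilage protein MIA, and Emilin2 an elastic-fibre glycoprotein that is also found in the basilar membrane. Slc4a11 encodes a membrane transporter of the bicarbonate transporter family. Tbx18 and Pou3f4 are transcription factors of the otic mesenchyme from which fibrocytes arise, and loss of Pou3f4 causes X-linked deafness with fibrocyte defects.

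Sequence before the transcription start is shown for Coch and Otos, the best known fibrocyte products, and for Pou3f4, the gene with the called probe set described further on. RefSeq windows of 300 bases (250 before to 50 after a start; build GRCm38.p6) were held for 6 of the 7 genes, with 2 windows for Emilin2; the 250 bases before the start are printed 5′ to 3′ along the gene's strand. Capitals mark CACACC, which is GGTGTG, the short T-box core, read on the opposite strand.
Coch, chr12:51593091-51593340, plus strand: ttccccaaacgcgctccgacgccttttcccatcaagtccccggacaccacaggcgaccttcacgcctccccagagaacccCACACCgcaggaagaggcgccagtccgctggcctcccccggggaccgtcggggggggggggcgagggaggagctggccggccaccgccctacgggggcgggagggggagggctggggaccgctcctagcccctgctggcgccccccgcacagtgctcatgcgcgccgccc
Otos, chr1:92648842-92649091, minus strand: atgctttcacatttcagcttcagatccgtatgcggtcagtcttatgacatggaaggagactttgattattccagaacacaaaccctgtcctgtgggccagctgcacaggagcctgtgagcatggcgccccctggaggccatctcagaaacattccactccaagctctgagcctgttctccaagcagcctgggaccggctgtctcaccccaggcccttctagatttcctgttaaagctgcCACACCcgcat
Pou3f4, chrX:110814129-110814378, plus strand: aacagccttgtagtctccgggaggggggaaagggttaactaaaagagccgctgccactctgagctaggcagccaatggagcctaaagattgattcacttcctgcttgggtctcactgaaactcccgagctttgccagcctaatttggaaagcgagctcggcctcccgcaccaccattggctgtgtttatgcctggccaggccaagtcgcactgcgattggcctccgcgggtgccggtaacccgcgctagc

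Tbx18 and Pou3f4 are themselves DNA-binding proteins, so their textbook motifs were searched for on both strands of each window. The T-box core GGTGTG was found once in the Coch window, at position -170 relative to the start site, and once in the Otos window, at position -11. This core lies within the longer T-box motif AGGTGTGA, which was in no member's window. The core was present in 19.0% of all 32851 windows of the same length and the longer motif in 1.27%. The octamer ATGCAAAT, a motif of POU proteins, was in none of the members' windows and in 1.74% of all windows. TATAAA was found in the Otor window, at position -35, and on the opposite strand of the Coch window at position 4 after the start, against 13.6% of all windows. The Pou3f4, Tbx18 and Emilin2 windows held none of these letters. The Coch window had a GC content of 73.7% with 32 CpG dinucleotides, above the upper quartile of all windows (61.7% GC, 20 CpG). The Otos window had 55.0% GC and 6 CpG, and the Otor window 47.3% GC and 2 CpG. Such matches describe the letters only.

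The arrays were comparable in overall scale. Their trimmed mean signal (2% trimmed) was 1494.4 to 1496.2 and their median signal 551.7 to 649.3. Wild-type replicate 3 and D257A replicate 2 correlated least with the rest of their groups (mean r of log2 signal 0.914 and 0.89), and each member's fold change was also computed without both. The labels do not say whether a numbered sample is 1 animal or a pool, and the design text states that no replicates were made, so n counts arrays and the p-values measure the spread between these samples, which may in part be technical. Precision is limited by having 5 arrays a group. Since bulk tissue was used, fewer cells of a type and less RNA per cell cannot be told apart.

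Of the 7 fibrocyte genes, Pou3f4 alone had a probe set that passed the test, and it was 2.01-fold higher in D257A cochleae. The other, brighter Pou3f4 probe set did not pass (log2 fold change 0.23, limma adjusted p = 0.457). Represented by its brightest probe set, as the genes of the marker lists were, Pou3f4 was thus not called. Coch, Otos, Otor and Tbx18 had lower means in D257A cochleae and Emilin2 a higher one, none of which passed the test, and Slc4a11 had fold changes near 1. All 10 member probe sets were among the 22518 brighter probe sets that were tested. An adjusted p of 0.05 in limma was reached by 1 of the 10, against 2.28% of all tested probe sets in either direction and 1.03% in the higher direction. The median log2 fold change of the 10 was -0.06 (6 negative, 4 positive), against -0.0005 over all tested probe sets.

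**Figure D1:**
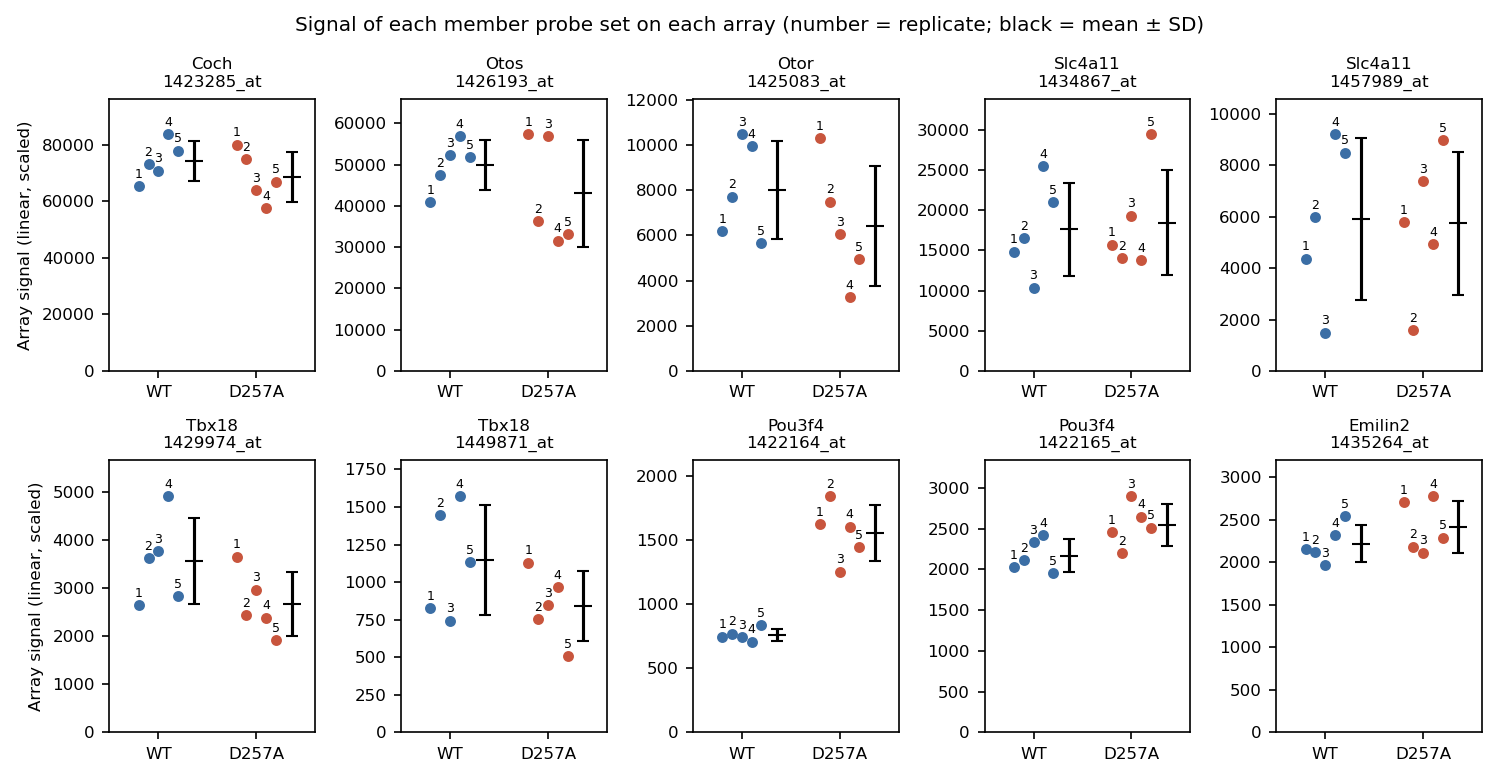
Linear array signal of each member probe set, 1 panel each with its own vertical axis from 0, for 5 wild-type (WT, blue) and 5 D257A (red) cochleae; numbers are replicates and black marks are the mean ± SD. In the Pou3f4 1422164_at panel the D257A arrays (1254.3 to 1846.7) lie above the wild-type arrays (708.3 to 838.2), while the groups overlap in the other panels.

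Coch, the cochlin gene, varied little among the arrays of a group, with coefficients of variation of 9.3% and 13.0%. Its signal on wild-type replicates 1 to 5 was 65510.6, 73303.4, 70922.2, 83744.1 and 77969.3, and on D257A replicates 1 to 5 it was 80129.6, 74915.8, 63894.3, 57562.8 and 67020.8. The ranges overlapped, with 2 D257A arrays (replicates 3 and 4) below every wild-type array and none above. The means were 74290 ± 6934 and 68705 ± 8933 (SD, n = 5 each), a log2 fold change of -0.12 (SE 0.13, limma adjusted p = 0.705; two-sided exact permutation p = 0.294). The 95% interval ran from 0.76-fold to 1.12-fold. D257A was higher in 8 of the 25 pairings of a wild-type with a D257A array, the kind of comparison named in the study's design.

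Otos, the otospiralin gene, was more uneven among the D257A cochleae. Its wild-type signals were 40918.1, 47510.1, 52246.7, 56957.7 and 51760.2 on replicates 1 to 5. In D257A cochleae they were 57335.3, 36264.3, 56957.8, 31574.7 and 33072.5. D257A replicates 2, 4 and 5 thus lay below every wild-type array, while replicates 1 and 3 stood at or above the highest wild-type value. The means were 49879 ± 6024 and 43041 ± 12988 (SD, n = 5 each; log2 fold change -0.26, SE 0.20, limma adjusted p = 0.547; exact permutation p = 0.246), with a 95% interval of 0.63-fold to 1.12-fold. Coefficients of variation were 12.1% for the wild-type and 30.2% for the D257A arrays; this difference in spread was not tested. Each member probe set was compared within groups with the score of every cell and tissue list, and only some relations are given. Otos ran against the score of 10 macrophage markers (r = -0.54, rho = -0.55). Without the 2 arrays farthest from the group means of the score r was -0.87. For the muscle, mural cell and marrow scores r was -0.29, -0.27 and -0.16, and -0.70, -0.68 and -0.56 without such arrays. For general fibroblasts it was 0.36 and 0.55. The part of these cells was not tested.

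Whether Otos and Coch changed to different degrees was tested within arrays, where a factor common to both genes cancels. The log2 difference of Otos and Coch fell by 0.14 from wild-type to D257A cochleae (95% interval -0.54 to 0.27; two-sided exact permutation p = 0.468). No difference between the changes of these genes was detectable with 5 arrays a group. This within-array difference had an SD of 0.089 over the wild-type and 0.381 over the D257A arrays; the spreads were not compared by a test.

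Otor, the otoraplin gene, had wild-type signals of 6190.9, 7711.6, 10465.4, 9937.1 and 5641.6. Its D257A signals were 10296.8, 7487, 6039.4, 3270.5 and 4955. The highest D257A array (replicate 1) came close to the highest wild-type array, and replicates 4 and 5 lay below all wild-type arrays. The means were 7989 ± 2165 and 6410 ± 2664 (SD, n = 5 each; log2 fold change -0.38, SE 0.29, limma adjusted p = 0.543; exact permutation p = 0.294). Otor is also a product of cartilage. Of 7 tested chondrocyte markers 5 were negative and 2 were called lower, Cytl1 (log2 fold change -1.33, limma adjusted p = 0.0103) and the matrix protein gene Comp (-1.36, 0.0232). Of all 11871 genes tested, 1.66% were called lower. The Comp call was lost with wild-type replicate 2 (0.0755), wild-type replicate 5 (0.0673) or D257A replicate 3 (0.052) left out. The summed signal of the 10 chondrocyte markers on the array ranged from 17062 to 28745.7 over wild-type and from 10651.5 to 17165.9 over D257A arrays. Within groups Otor did not rise with the score of the 7 tested markers over the 10 arrays (r = -0.60, rho = -0.59). Without the 2 arrays farthest from the group means of the score r was -0.52. Their part in the Otor difference was not tested.

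Emilin2, the elastic-fibre glycoprotein gene, varied little. It measured 2153.9, 2117.5, 1967.2, 2318.1 and 2543.8 on wild-type replicates 1 to 5. The D257A values were 2707.5, 2184.2, 2113.3, 2782.8 and 2292.9. Replicates 1 and 4 of D257A exceeded all wild-type arrays and the other 3 lay within the wild-type range. The means were 2220 ± 219.8 and 2416 ± 308.2 (SD, n = 5 each; log2 fold change 0.12, SE 0.15, limma adjusted p = 0.746; exact permutation p = 0.262), with a 95% interval of 0.87-fold to 1.36-fold. Macrophages and marrow cells also make Emilin2. The 10 neutrophil and marrow markers were all positive, with 2 called higher, Mpo and Ctsg (log2 fold change 1.12 and 1.31, limma adjusted p = 0.0309 and 0.0337). Of all 11871 genes tested, 0.657% were called higher. Leaving out 1 array ended the Mpo call for D257A replicates 1, 2 and 5 and wild-type replicates 1, 2, 4 and 5 (up to 0.0825), and the Ctsg call for the same arrays except wild-type replicate 1 (up to 0.0846). Their summed signal ranged from 77509.6 to 125997.8 over wild-type and from 107019.9 to 310841.8 over D257A arrays. The 10 macrophage markers held no call, with sums of 31650.7 to 39593.4 and 34351.5 to 47753.7. Within groups Emilin2 had r of -0.33 with the marrow score and -0.22 with the macrophage score, and both signs turned without the 2 farthest arrays (0.10 and 0.46). Its r with the chondrocyte score was 0.60, and 0.37 without the 2 farthest arrays. The part of these cells in the Emilin2 values was not tested.

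Slc4a11, the transporter gene, varied widely among the arrays of each group, and neither of its probe sets passed the test. Its brighter probe set, 1434867_at, measured 14858.5, 16495.5, 10352.7, 25467.4 and 20985.4 in wild-type and 15704.7, 14043.4, 19313.3, 13778.6 and 29440.2 in D257A cochleae. The highest array of all was D257A replicate 5 and the lowest wild-type replicate 3. The means were 17632 ± 5801 and 18456 ± 6525 (SD, n = 5 each; log2 fold change 0.07, SE 0.26, limma adjusted p = 0.923; exact permutation p = 0.825), and the interval of 0.71-fold to 1.56-fold is wide. The sign of this difference turned negative with arrays centred on the median (-0.03).

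The second Slc4a11 probe set, 1457989_at, gave 4368.1, 5998.9, 1484.2, 9209.9 and 8500.3 in wild-type and 5794, 1590.1, 7389.8, 4937 and 8993.1 in D257A cochleae. Its lowest values were those of wild-type replicate 3 and D257A replicate 2, the arrays that stood apart from their groups. The log2 fold change was -0.002 (SE 0.52, limma adjusted p of 0.9996), with an interval of 0.46-fold to 2.19-fold, and turned to 0.02 under quantile normalization. Over the 10 arrays, with group means subtracted, both Slc4a11 probe sets moved together (r = 0.83, rho = 0.95; r = 0.75 without the 2 farthest arrays). Within groups both also rose with the score of hair and supporting cell genes. For 1434867_at r was 0.81 (rho = 0.77; 0.75 without the 2 farthest arrays), and for 1457989_at it was 0.57 (rho = 0.81; 0.62). With the chondrocyte score r was 0.64 (rho = 0.48; 0.36) and 0.85 (rho = 0.69; 0.47). The part of these cells in the spread of Slc4a11 was not tested.

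Tbx18, the T-box factor of otic mesenchyme, had the largest negative fold changes among the members. Probe set 1429974_at measured 2652.7, 3620.9, 3772.5, 4918.4 and 2839.6 in wild-type cochleae. It measured 3654.2, 2432.6, 2969.3, 2385.5 and 1925.1 in D257A cochleae. D257A replicates 2, 4 and 5 lay below all wild-type arrays, the same 3 arrays as for Otos, and the other 2 lay inside the wild-type range. The means were 3561 ± 899.5 and 2673 ± 661.5 (SD, n = 5 each; log2 fold change -0.41, SE 0.22, limma adjusted p = 0.361; exact permutation p = 0.103), so the difference did not pass the test. D257A was higher in 5 of the 25 pairings.

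Probe set 1449871_at of Tbx18 gave 826.5, 1445.1, 743.9, 1574.4 and 1134.3 in wild-type and 1130.9, 756, 847.8, 964.7 and 508.2 in D257A cochleae. Its groups overlapped, with only D257A replicate 5 below every wild-type array. Its log2 fold change of -0.42 (SE 0.27, limma adjusted p = 0.45; exact permutation p = 0.19) was like that of the first probe set. The changes of both differed by 0.01 (95% interval -0.47 to 0.50; exact permutation p = 0.913), and their deviations within groups were positively related (r = 0.68, rho = 0.71; r = 0.42 without the 2 farthest arrays). Pericytes and smooth muscle also carry Tbx18. Of 10 tested mural cell markers 9 were negative, with a median log2 fold change of -0.71, and 2 were called lower, Tagln and Anpep (-1.33 and -1.13, limma adjusted p = 0.0176 and 0.0223). Of all 11871 genes tested, 1.66% were called lower. The other markers were not called and ranged from -3.1 for Des to 0.29 for Pdgfrb. Among them Rgs5, Notch3 and Kcnj8 stood at -0.34, -0.25 and -0.31. The Tagln call was lost with wild-type replicate 2 or 5 left out (0.0592 and 0.0505), and the Anpep call with wild-type replicate 2, 4 or 5 (0.0716, 0.0528 and 0.0754) or D257A replicate 1 (0.053). Their summed signal ranged from 54243.6 to 70630.8 over wild-type and from 33980.7 to 50934.9 over D257A arrays. Within groups their score was not positively related to either Tbx18 probe set (r = -0.49 and -0.33), and their part in the Tbx18 values was not tested.

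Pou3f4, the POU-domain factor of fibrocytes and of parts of the brain, gave the called difference. Probe set 1422164_at measured 748.6, 770.4, 744.9, 708.3 and 838.2 on wild-type replicates 1 to 5. On D257A replicates 1 to 5 it measured 1623.9, 1846.7, 1254.3, 1605.6 and 1446.5. Every D257A array was above every wild-type array, a separation in that direction shown by 2.47% of all tested probe sets. The means were 762.1 ± 48.04 and 1555 ± 220.6 (SD, n = 5 each), a log2 fold change of 1.005 (SE 0.16, limma adjusted p = 0.00832), or 2.01-fold with a 95% interval of 1.58-fold to 2.55-fold. The two-sided exact permutation p was 0.00794, the smallest that 5 against 5 arrays can give. The call held without any 1 array (adjusted p 0.0128 to 0.0318). The wild-type signals were not far above 577.4, the lower edge of mean signals tested, and detection calls were not used here.

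The second Pou3f4 probe set did not give the same result. Probe set 1422165_at measured 2026, 2111.7, 2332.1, 2420.2 and 1956.9 in wild-type and 2459.9, 2196, 2902.2, 2648.6 and 2512 in D257A cochleae. Of the D257A arrays 4 lay above all wild-type arrays, and replicate 2, the array that was highest on the first probe set, lay inside the wild-type range. The means were 2169 ± 199.0 and 2544 ± 259.1 (SD, n = 5 each; log2 fold change 0.23, SE 0.14, limma adjusted p = 0.457), with an interval of 0.94-fold to 1.45-fold. The single-gene exact permutation p, not adjusted for other genes, was 0.0397, and D257A was higher in 23 of the 25 pairings. Both probe sets of Pou3f4 are annotated to the same transcript record.

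The changes of the Pou3f4 probe sets were compared with each other within arrays, a comparison chosen after their values were seen. The log2 difference of 1422164_at and 1422165_at was higher in D257A cochleae by 0.78 (95% interval 0.36 to 1.19, two-sided exact permutation p = 0.00794). The same values prompted this comparison, so its p only describes how far the measured changes differed. Within groups the probe sets also ran in opposite directions. Over 10 arrays with group means subtracted r was -0.83 and rho -0.86, and r was -0.61 without the 2 farthest arrays. The corresponding r was 0.83 for Slc4a11 and 0.68 for Tbx18, the other genes here with a second probe set. Averaging the Pou3f4 probe sets on the log2 scale gave a log2 fold change of 0.62, higher in D257A cochleae, with a limma adjusted p of 0.016. Within groups the mural cell score had r of 0.40 with 1422164_at and -0.76 with 1422165_at, and these were 0.42 and -0.77 without the 2 arrays farthest from the group means of the score. The neutrophil and marrow score, whose genes were all positive in D257A cochleae, had r of 0.23 (rho 0.38) with 1422164_at and -0.60 (rho -0.65) with 1422165_at. Without the 2 farthest arrays these were 0.81 and -0.89. The part of these cells, and which probe set follows the Pou3f4 transcript, was not tested.

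**Figure D2:**
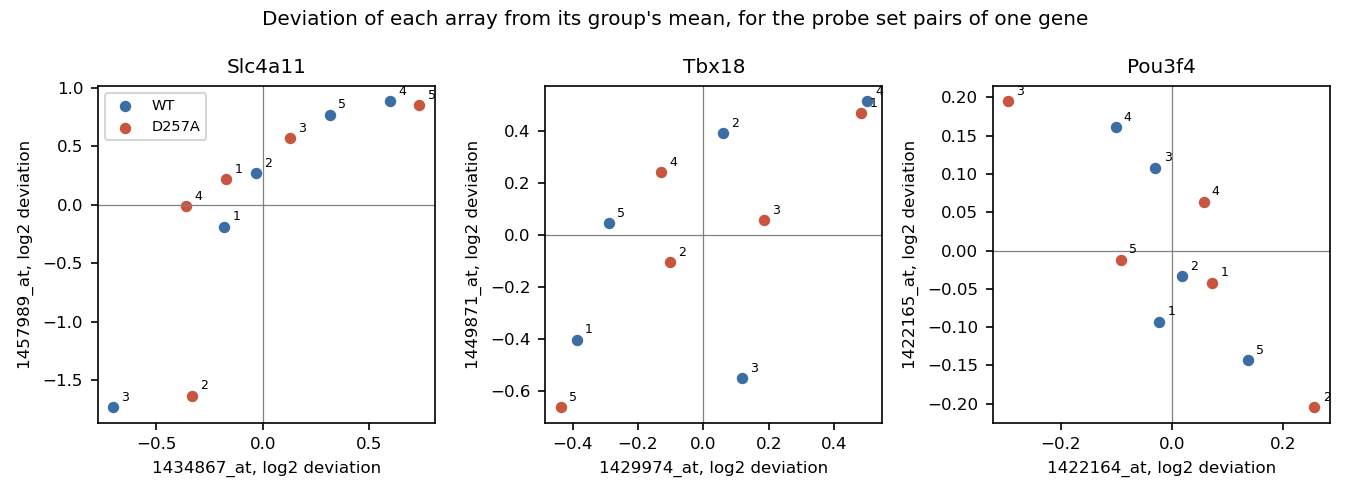
For the 3 genes with 2 probe sets, each point is an array (WT blue, D257A red, number = replicate) and each axis the deviation of its log2 signal from the mean of its group. Points rise together for Slc4a11 (r = 0.83) and Tbx18 (r = 0.68) and run oppositely for Pou3f4 (r = -0.83).

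Brain tissue next to the cochlea also carries Pou3f4, and markers of brain stem, cerebellum and choroid plexus differed in part between the groups. Of the 10 tested, 5 were positive and 5 negative. Ttr, a choroid plexus transcript, and Mobp, of oligodendrocytes, were called higher and Pcp2, of Purkinje cells, lower. Their log2 fold changes were 3.08, 1.28 and -4.02 (limma adjusted p = 0.0168, 0.0466 and 0.0166). Of all 11871 genes tested, 0.657% were called higher and 1.66% lower. The Ttr and Pcp2 calls were each lost with wild-type replicate 2 or 5 left out (up to 0.052 and 0.0524), and the Mobp call with any 1 array but D257A replicate 2 (up to 0.108). Their summed signal ranged from 31473.4 to 102847 over wild-type and from 73665 to 205243.4 over D257A arrays, with overlap. Ttr alone averaged 8513 ± 2500 on wild-type and 94331 ± 56812 on D257A arrays (SD, n = 5 each). The higher D257A sums therefore follow Ttr in large part and do not describe the list as a whole. Within groups the score of this list was weakly related to Pou3f4 1422164_at (r = 0.15, rho = 0.24). Without the 2 farthest arrays r was 0.07. The score averages genes that changed in opposite directions. Its lowest value was that of wild-type replicate 1 (-1.54), and D257A arrays spanned only -0.25 to -0.07. It therefore cannot show how Pou3f4 varied with brain tissue as such. The part of brain tissue in the Pou3f4 difference was not tested. The relatives Pou3f1 and Pou3f3 were not called (log2 fold change 0.72 and -0.03, limma adjusted p = 0.179 and 0.978), and Pou3f2 was below the brightness limit.

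**Figure D3:**
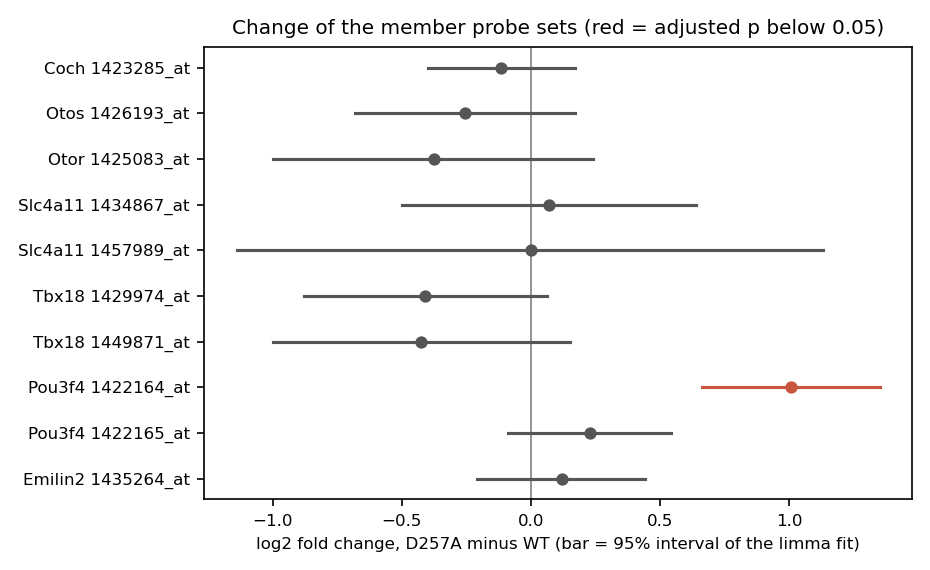
Log2 fold change (D257A minus wild-type) of each member probe set with the 95% interval of the limma fit, n = 5 arrays each; red marks an adjusted p below 0.05. Only the interval of Pou3f4 1422164_at, centred on 1.005, stands clear of 0.

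How the members varied together was described after subtracting each group's mean, over 10 arrays that share RNA, labelling and scaling. Otos, Otor and Tbx18 (1429974_at) formed the most closely related trio: r was 0.78 between Otos and Tbx18, 0.73 between Otor and Tbx18 and 0.66 between Otos and Otor, with rho of 0.83, 0.77 and 0.75. These values were 0.71, 0.76 and 0.63 without the 2 arrays farthest from the group means of the first gene named in each pair. Coch was related to Otor (r = 0.74, rho = 0.61), but r was 0.38 without the 2 farthest arrays, and for Coch and Otos r went from 0.54 to 0.11. These 2 relations of Coch were thus weaker without its 2 farthest arrays, whose removal also narrows the range of Coch. Over all 10 arrays rho was 0.55 for Coch and Otos. Slc4a11 (1434867_at) had r between -0.36 and 0.29 with the probe sets of every other member, and Emilin2 between -0.30 and 0.53. Among the brightest probe sets of the 7 genes, D257A replicate 4 was the lowest D257A array for 4 genes and replicate 1 the highest for 4. Wild-type replicate 4 was the highest wild-type array for 5.

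**Figure D4:**
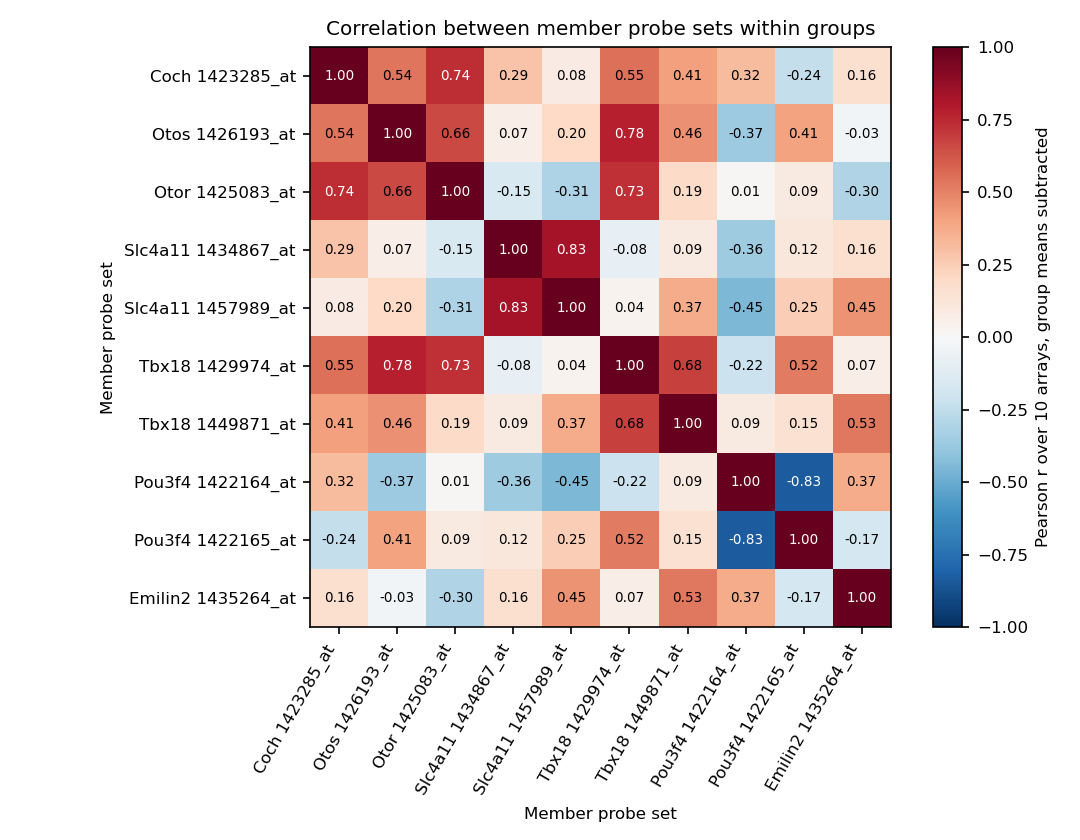
Pearson r between member probe sets over 10 arrays after subtraction of group means, from -1 (blue) to 1 (red). Otos, Otor and Tbx18 1429974_at share values of 0.66 to 0.78, and the Pou3f4 probe sets stand at -0.83.

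The genes whose profile over the 10 arrays was most like that of Coch or Otos were picked by the highest Pearson r with group means subtracted, among 11870 other genes at 1 probe set each. For Coch they were Rpain (r = 0.96, rho = 0.94), Sft2d2 (0.90, 0.83), AB124611 (0.89, 0.93), Arhgap31 (0.89, 0.84) and Cep43 (0.89, 0.94). None of them was called between genotypes. For Otos they were Pfkfb2 (r = 0.98, rho = 0.99), Tasor (0.94, 0.98), Ifitm3 (0.94, 0.93), Stk17b (0.93, 0.93) and Yipf6 (0.93, 0.98). These had negative fold changes, of -0.12, -0.44, -0.31, -0.39 and -0.29, and none was called. An r of at least 0.9 was reached by 1 gene for Coch and 14 for Otos.

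Other genes known from fibrocytes and the lateral wall held 1 call. Of 11 tested, 7 were negative and 4 positive; the median log2 fold change was -0.02, and -0.0223 over all 11871 genes tested. Aqp1 was called lower, against 1.66% of genes called lower and 0.657% called higher overall. Aqp1 encodes a water channel of type III fibrocytes and also of small vessels and red cells. It averaged 7899 ± 1690 on wild-type arrays against 4426 ± 513.2 on D257A arrays (SD, n = 5 each; log2 fold change -0.81, SE 0.18, limma adjusted p = 0.0359), and its groups did not overlap (5391.7 to 10119.7 against 3591.5 to 4898). Every D257A array lay above every wild-type array for 2.47% of all tested probe sets. The share with a separation in the lower direction, as for Aqp1, is not given here. The Aqp1 call was lost in 9 of the 10 fits without 1 array. It held only without wild-type replicate 3, and its adjusted p reached 0.102 without wild-type replicate 5.

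The other members of that list were not called; some are named here for their function, after their values were seen. The gap junction genes Gjb2 and Gjb6, through which fibrocytes pass potassium, had log2 fold changes of -0.27 and 0.10 (limma adjusted p = 0.428 and 0.799). Gja1, a connexin of many connective tissue cells and glia, measured 8939 ± 2850 and 14524 ± 3827 (SD, n = 5 each; limma adjusted p = 0.121, and 0.035 without wild-type replicate 3). Slc12a2, the sodium, potassium and chloride cotransporter of fibrocytes and marginal cells, had a log2 fold change of -0.02 (adjusted p = 0.981), and Atp1b1, a sodium pump subunit, one of 0.25 (adjusted p = 0.398). The caveolin gene Cav1 had one of -0.58 (adjusted p = 0.121), and the carbonic anhydrase gene Car3 one of -0.31 (adjusted p = 0.269). Within groups the score of this list rose with Tbx18 1429974_at (r = 0.87, rho = 0.85; 0.65 without the 2 farthest arrays) and Otos (r = 0.67, rho = 0.62; 0.46). Its relation to Coch (r = 0.59, rho = 0.36) fell to 0.04 without the 2 farthest arrays. The score of the stria vascularis genes, described below, also rose with Tbx18 1429974_at and Otos. For Tbx18 1429974_at r was 0.72 (rho = 0.72), and 0.53 without the 2 farthest arrays. For Otos r was 0.57 (rho = 0.59), and 0.50 without them.

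Markers of fibroblasts of any connective tissue mostly had negative fold changes. Of 10 tested markers 9 were negative and 5 were called lower, against 1.66% of all 11871 genes tested. The markers had a median of -0.85 on the log2 scale. Col3a1, a fibrillar collagen, changed by -1.05 on that scale (limma adjusted p = 0.00486). The summed signal of these markers ranged from 107125 to 151160.5 over wild-type and from 72910.2 to 98844 over D257A arrays, without overlap. By comparison, that of the other fibrocyte and lateral wall genes was 230862.7 to 312845.7 and 217869.1 to 292756.4. The difference between the lists was not tested. Skeletal muscle markers (12 negative of 12, 7 called lower) and markers of middle ear and gland epithelium (12 of 12, 6 called lower) had medians of -2.98 and -2.09. Their sums were 170353 to 499158.5 against 9083.4 to 250479.1 for muscle, and 214333.2 to 443016.7 against 106792.3 to 147085.5 for epithelium. The part of such tissue around the cochlea in the members' values was not tested.

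**Figure D5:**
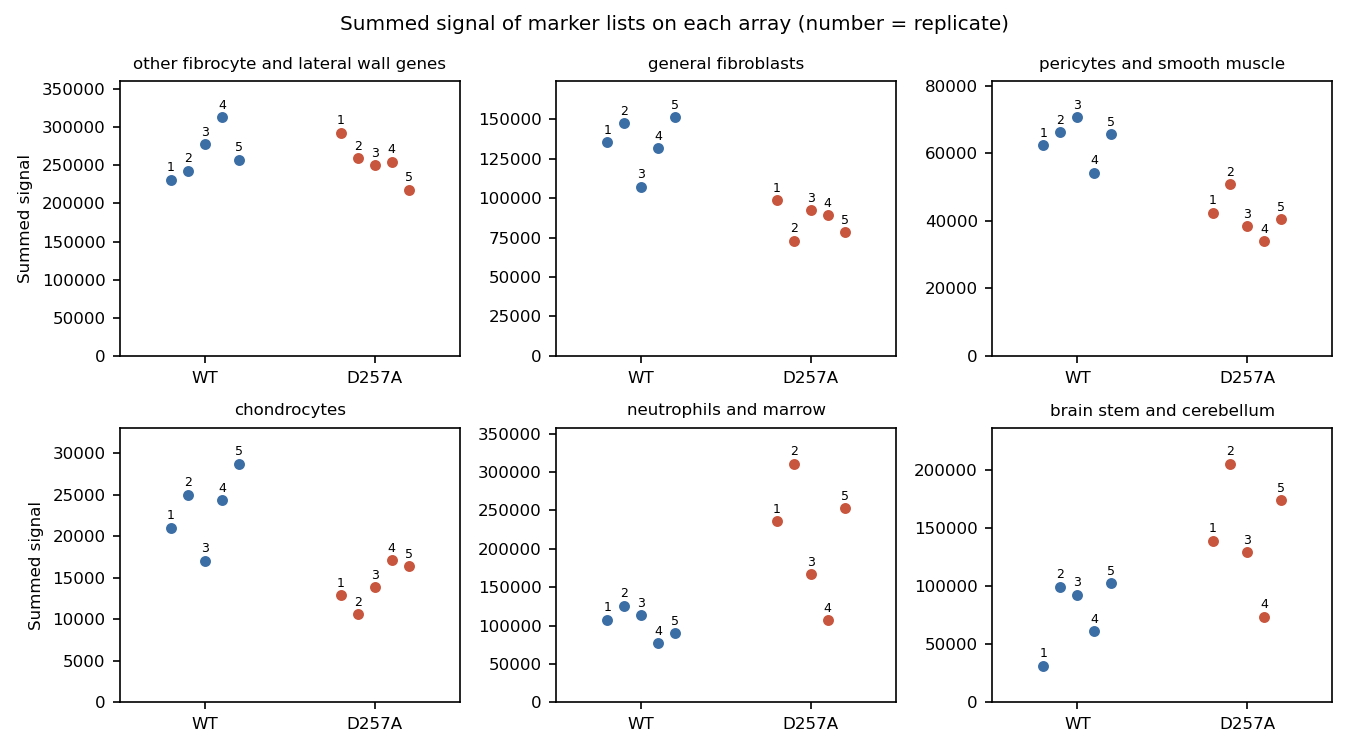
Summed linear signal of marker lists on each array (WT blue, D257A red, number = replicate), each panel with its own axis from 0. General fibroblast and mural cell markers are lower on every D257A array than on every WT array, while the other fibrocyte and lateral wall genes overlap.

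Neighbouring cochlear cells were represented as well. Of 9 tested genes of the stria vascularis 6 were negative with a median of -0.11. Of these genes 1 was called higher, against 0.657% of all 11871 genes tested. Kcnj10, a potassium channel of intermediate cells and of glia, was called higher (2281 ± 753.0 and 5336 ± 661.2, SD, n = 5 each; log2 fold change 1.26, limma adjusted p = 0.00872). Hair and supporting cell genes (6 tested, median 0.03), spiral ganglion genes (10 tested, median 0.15) and bone genes (7 tested, median -0.30) held no call. Among 10 hair and supporting cell genes on the array, 4 were too dim to be tested, including the prestin gene Slc26a5 (59.2 ± 38.59 in wild-type cochleae).

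Relatives of the members by gene family held no called gene. Vit, which encodes vitrin and shares the LCCL and von Willebrand A domains of cochlin, measured 1724 ± 330.9 and 1149 ± 99.13 (SD, n = 5 each). Its groups did not overlap (1327.6 to 2091.1 against 983.3 to 1239.8), and it did not pass the test (log2 fold change -0.56, SE 0.17, limma adjusted p = 0.114). The share of all tested probe sets with such a separation in the lower direction is not given here. The 6 other genes put on this list of relatives for an LCCL or von Willebrand A domain had log2 fold changes between -0.12 and 0.08. Tbx15, a mesenchymal T-box gene, measured 1241 ± 467.9 and 503.1 ± 257.2 (SD, n = 5 each; log2 fold change -1.33, limma adjusted p = 0.0679, and 0.0284 without D257A replicate 2) and the other 3 tested T-box genes had values of 0.18 to 0.22. Mia and Mia3, related to Otor, had log2 fold changes of -0.16 and -0.07. The multimerin genes Mmrn1 and Mmrn2, related to Emilin2, had -0.30 and -0.35. Of 5 tested SLC4 transporters, Slc4a1, the anion exchanger of red cells, had the smallest p (log2 fold change -0.50, adjusted p = 0.225).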

How the data were processed

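Biotin-labelled cochlear RNA was hybridised to mouse Affymetrix arrays, 5 per genotype. The deposited values are linear array intensity, 1 per probe set, made by the authors with GCOS 1.3 (submitters' processing notes). How GCOS corrected background, summarised probes and set the scale is not given in the sources used here. The authors' scaling was kept. Of 45101 rows, 64 control probe sets with a value on 1 array only were left out. Gene symbols came from the platform annotation (34945 probe sets with 1 gene, 932 with several, 9160 unnamed here).

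Signals were analysed as log2(signal + 16), so folds are on that scale and understate changes of dim genes. The brightest 50% of probe sets by mean log2 signal (22518) entered a linear model of genotype (limma 3.58.1, R 4.3.3; lmFit, then eBayes with an intensity trend; 8 residual degrees of freedom) tested two-sided with Benjamini-Hochberg adjustment over all of them at 0.05. Exact permutation tests used all 252 assignments of 5 and 5 arrays. The score of a list was the mean log2 signal of its tested genes, each centred on its mean over all arrays. Summed signals also held the list genes too dim to be tested. List genes were represented by their brightest probe set; called genes and up to 3 with the smallest p were to be named, with some others named for their function; of the muscle, epithelium and fibroblast lists only counts and 1 example are given, and of lists with no call mostly the medians. Scripts were tested on simulated data. The members, the lists and this rule were chosen with earlier results of these data known. Alternatives were a pseudocount of 1 or 64, median centring, quantile normalization, no filter or the brightest 30%, no trend, array weights, replicate blocks, arrays left out, other thresholds and averaged probe sets. Same-numbered arrays did not deviate together (correlations -0.337 to 0.183). Protein sequences were not used here.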

Additional observations from a re-analysis of the deposited data

How the results depend on the processing

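Of the 10 member probe sets, 8 kept their direction and their side of the threshold in every alternative that could be fitted. Pou3f4 1422164_at kept its call in 19 of 19 (log2 fold change 0.90 to 1.08, limma adjusted p 0.00351 to 0.0493); it lay outside the brightest 30%, so that setting gave 0 called members. Coch ranged from -0.25 to -0.06, Otos from -0.37 to -0.10, Otor from -0.57 to -0.16, Tbx18 1429974_at from -0.53 to -0.28, and none was called. The Slc4a11 signs turned: 1434867_at was -0.00807 with array weights, -0.031 with median centring, -0.023 without both arrays that stood apart, and ranged from -0.11 to 0.22 without 1 array, and 1457989_at was 0.016 with quantile normalization and ranged from -0.44 to 0.41 without 1 array. Median centring moved the median of all tested probe sets to -0.101. The cause of these changes was not tested.

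The count of 513 called probe sets was 1217 with array weights, 322 among the brightest 30%, 188 with the replicate block, 168 to 574 without 1 array, 1076 at an adjusted p of 0.10 and 3809 at the design text's p under 0.05 and fold over 1.1; the replicate block left 1 member called (Pou3f4 1422164_at, 0.0493) and ended the calls of Aqp1 (0.101), Tagln (0.0747), Anpep (0.0616), Comp (0.0675), Ctsg (0.0635) and Mobp (0.0911). Mobp was also not called with median centring (0.0593), no filter (0.0545) or no intensity trend (0.0521), nor Mpo without both arrays that stood apart (0.0638). Gja1 (0.0317), Cav1 (0.0488) and Tbx15 (0.0209) were called with array weights, Gja1 (0.0293) and Tbx15 (0.0301) also without both arrays, and Tbx15 with median centring (0.0484). The Otos and Coch difference in change was -0.055 to -0.275 without 1 array (exact permutation p from 0.0714) and that of the Pou3f4 probe sets 0.66 to 0.90. Averaged probe sets made Pou3f4 a call (0.016). Signal over background was not known, which limits the dimmer probe sets 1422164_at and 1449871_at.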
